A study of Homo sapiens with 36 samples.

Results

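Replication-dependent histone genes are short, multi-copy genes that supply the histones H1, H2A, H2B, H3 and H4 to newly copied DNA. They were taken as every gene whose current symbol is H1-1 to H1-6, or H2AC, H2BC, H3C or H4C followed by a number. Of 69 such symbols, 65 were found among the 60725 Ensembl genes of the tables, and H3C2, H3C3, H2AC18 and H2AC19 were not analysed here. The 65 genes comprised 6 for H1, 15 for H2A, 18 for H2B, 11 for H3 and 15 for H4. By position, 53 lay in the HIST1 cluster on chromosome 6, 9 in HIST2 and 2 in HIST3 on chromosome 1, and H4C16 lay alone on chromosome 12.

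In a nucleosome, DNA is wrapped around a core of H2A, H2B, H3 and H4, and the linker histone H1 binds where the DNA enters and leaves. Messenger RNAs of the replication-dependent genes accumulate in S phase, when DNA is copied, and are degraded as replication ends. In place of a poly(A) tail they end in a short hairpin, the stem-loop, which is held by the stem-loop binding protein SLBP and cut free with the help of the U7 small nuclear RNA and its partners LSM10 and LSM11. NPAT, a substrate of cyclin E and CDK2, activates transcription of these genes. Because the mature transcripts have no poly(A) tail, a library that selects such tails loses most of them.

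The series held 36 RNA-seq libraries from a pair of human breast lines, with 2 libraries in each of 18 groups. MCF-10A ER-Src is an untransformed mammary epithelial line with v-Src joined to the ligand-binding part of the estrogen receptor, an oncoprotein that tamoxifen (TAM) turns on and the vehicle ethanol (ETH) does not. The treatment protocol also lists AZD0530, a Src kinase inhibitor, beside tamoxifen, and the study's siRNA methods name both, but which libraries received it is not given in the sources used here, so the TAM libraries may hold it. In the 20 ER-Src libraries, pooled small interfering RNAs (siRNAs) against YAP (YAPi), TAZ (TAZi), STAT3 (STAT3i) or JUNB (JUNBi), or a control siRNA (Ctrli), were each combined with TAM or ETH. MDA-MB-231 is an established line of a metastatic triple-negative breast cancer. Its first set held Ctrli, YAPi, TAZi, both together (YAPi_TAZi) and an siRNA mixture against the TEAD factors (TEADi), and its second set held Ctrli, JUNBi and STAT3i. YAP and TAZ are transcriptional coactivators that bind TEAD factors, STAT3 is a transcription factor activated by cytokines, and JUNB is a subunit of AP-1. Nothing in the labels said that the paired libraries came from separate cultures, so p-values measured only the spread between these libraries, which may be technical. In bulk RNA, fewer cells in S phase and less histone RNA per cell cannot be told apart.

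Totals of estimated reads per library were 6419720 to 19161700 in ER-Src, 1411304 to 2784605 in the 8 knockdown libraries of the first MDA-MB-231 set, and 7290499 to 18076158 in the other 8 MDA-MB-231 libraries. Well-known RNAs without a poly(A) tail made up 8.71% to 11.8% of the reads in those knockdowns and 9.43% to 11.7% in ER-Src, but 0.00278% to 0.0112% in the controls of the first set and all of the second set, which therefore looked like poly(A)-selected libraries. For this reason the knockdowns of the first set were compared with each other and not with their controls, from which library kind cannot be told apart. Basal keratin KRT5 was at 1010 to 2620 TPM (RSEM's share of transcripts, which is corrected for gene length) in ER-Src and at 0 to 11.5 in MDA-MB-231. The targeted genes fell in ER-Src by 2.49 and 2.38 (YAP1), 2.22 and 1.86 (WWTR1, which encodes TAZ) and 2.66 and 1.88 (STAT3) on the log2 scale in TAM and ETH. JUNB fell by 2.03 in TAM, whereas its estimate of -1.16 in ETH missed the threshold (adjusted p = 0.0643).

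The stem-loop was read from the human genome (hg38, GENCODE 44 transcripts) for all 69 symbols. A hairpin with a 6-base stem and a 4-base loop starting GGCTCT or GGCCCT was found within 120 bases of the stop codon in 67 of them, 23 to 68 bases after it. These hairpins took 8 forms. Of 19787 other coding genes, 2 (0.0101%) held any of these forms, and both, H3-4 and H3-7, are histone genes too. Any perfect hairpin of this stem and loop length was found in 5.5% of the other genes. All 15 H4 genes had the stem GGCCCT and all 52 others with a hairpin had GGCTCT. The most frequent hairpin, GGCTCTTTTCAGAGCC, ended 40 genes, and no hairpin of this kind was found in the windows of H2AC11 and H2AC15. The transcript ends of genes on which the results below turn are shown in sense orientation, with the hairpin in capitals.
H1-4: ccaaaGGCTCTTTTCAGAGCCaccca
H2AC13: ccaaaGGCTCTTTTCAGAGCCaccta
H3C13: ctaaaGGCTCTTTTCAGAGCCactgc
H3C14 and H3C15: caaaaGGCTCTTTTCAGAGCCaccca
H1-1: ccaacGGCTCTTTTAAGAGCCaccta
H4C14: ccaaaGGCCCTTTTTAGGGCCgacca
H4C11: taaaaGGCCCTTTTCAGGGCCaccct
H4C12: caaaaGGCCCTTTTTAGGGCCcccac
These lie in 3′ UTRs at chr6:26157090-26157115 (plus strand, H1-4), chr6:27808642-27808667 (plus, H2AC13), chr1:149813223-149813248 (minus, H3C13), chr1:149840687-149840712 (minus, H3C14), chr1:149853100-149853125 (plus, H3C15), chr6:26017032-26017057 (minus, H1-1), chr1:149833027-149833052 (plus, H4C14), chr6:27824454-27824479 (plus, H4C11) and chr6:27831173-27831198 (minus, H4C12).

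In TPM, histone RNA was unevenly spread over the copies. Levels are compared between genes only in TPM, which divides reads by effective length, so the order below depends on the lengths used. H2AC11 and H2AC13 held nearly equal mean shares of reads in ER-Src but averaged 33.5 and 164 TPM. H2BC8 held a larger mean share of reads than H2BC12 but averaged 45.9 TPM against 175. How much of the uneven spread comes from these lengths was not tested. In the 20 ER-Src libraries, H4C14 in HIST2 had the highest mean level (435 ± 147 TPM, SD, n = 20, range 204 to 849), followed by H4C11 (358 ± 121). The other 10 of the 12 highest were H2BC21 (204 ± 53.0), H1-2 (191 ± 58.9), H2BC12 (175 ± 43.1), H1-4 (173 ± 63.1), H2AC13 (164 ± 52.5), H4C4 (160 ± 57.9), H3C13 (159 ± 66.0), H3C7 (159 ± 60.3), H4C8 (148 ± 44.4) and H2BC4 (147 ± 43.6). From H2BC21 down, neighbours in this order differed by less than their SD. These 12 genes carried 47.5% of the TPM of all members, and H4C14 alone 8.36%. H4C14 may share reads with H4C15, as described below. At the other end, 57 members averaged at least 10 TPM and 7 averaged below 1.

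Nearly identical copies shared reads, which RSEM divides between genes by probability. H3C14 and H3C15, which lie close together in HIST2, received the same estimate in every library (866 to 4652 normalized counts in ER-Src, which are estimates divided by a size factor for library depth). H4C12 was at no more than 3 normalized counts in 12 of the 20 ER-Src libraries and at 767 and 414 in the ETH controls, 929 and 134 in STAT3i ETH and 756 and 579 in STAT3i TAM, while its neighbour H4C11 ran from 1414 to 5524. Their sum kept to 1695 to 5530, so H4C12 alternated between near 0 and far higher values while the pair as a whole varied much less. H2AC7 and H3C4 overlap a readthrough gene on the minus strand (chr6:26195595-26199293) that held 1027 to 3848 normalized counts, and H3C4 was at 0.9 and 0 in JUNBi TAM. RSEM's own posterior SD reached 5% of the estimate or more in 7 of 60 members (H4C15 46.0%, H3C14 40.7%, H3C15 35.7%, H3C4 33.8%, H4C12 28.4%, H2AC15 12.2%, H2AC7 10.3%) and stayed under 5% in the other 53. Values of these 7 genes as single genes are uncertain. For 5 of them, all but H4C15 and H2AC15, estimates with their set merged into 1 row are given below. This setting was added after the data were seen. H4C15 ended in the same hairpin and flanking bases as H4C14, and averaged 0.845 TPM in ER-Src against 435 for H4C14. This pair was not merged, so the level of H4C14 may hold reads of H4C15.

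**Figure D1:**
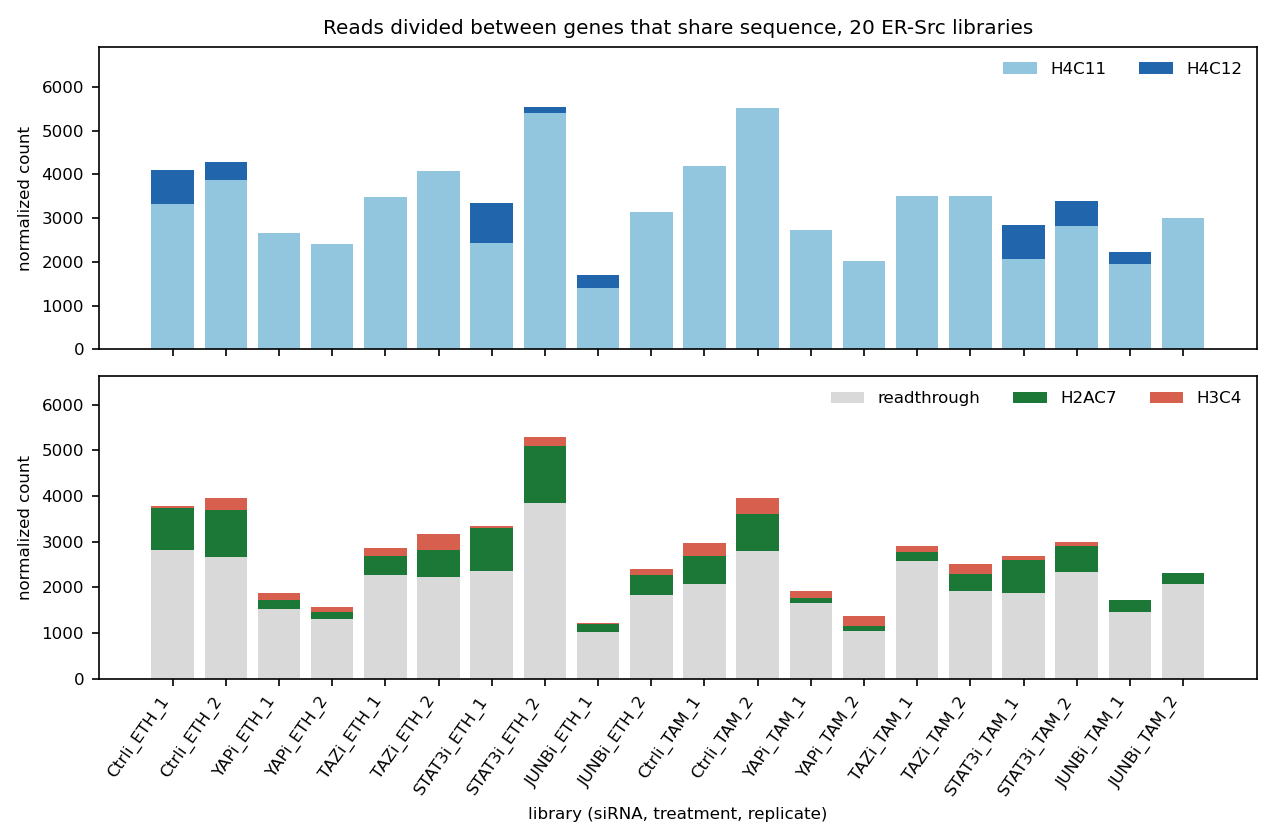
Normalized counts (y axis, stacked) of genes that share reads in each of the 20 ER-Src libraries (x axis), with H4C11 and H4C12 in the upper panel and H2AC7, H3C4 and the readthrough gene that overlaps them in the lower panel. H4C12 holds up to 929 counts in some libraries and no more than 3 in 12 of them, while the sum of the pair stays between 1695 and 5530.

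As a share of all gene counts, the 65 genes together took 7996 and 8259 reads per 1000000 (RPM) in Ctrli ETH and 6958 and 8247 in Ctrli TAM. YAPi gave 4483 and 3292 in TAM and 5141 and 4350 in ETH. JUNBi gave 4408 and 5077 in TAM and 3413 and 5322 in ETH. TAZi gave 6164 and 5977 in TAM and 6811 and 7503 in ETH, and STAT3i 5522 and 6412 in TAM and 6897 and 10348 in ETH. Every YAPi and JUNBi library thus lay below every control library, while STAT3i ETH lay on both sides of them. The 95% Wilson intervals of these shares, which cover counting error only, reached at most 0.938% of the value to either side, whereas the libraries of a group differed by up to 1.56-fold (JUNBi ETH), 1.5-fold (STAT3i ETH) and 1.36-fold (YAPi TAM). No p is given for a sum over the members. The readthrough gene that overlaps H2AC7 and H3C4 is not a member. Its reads, 1027 to 3848 normalized counts in ER-Src, are therefore not in these sums or in those by type and cluster. The H2A, H3 and HIST1 sums thus still depend on how reads were divided there.

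**Figure D2:**
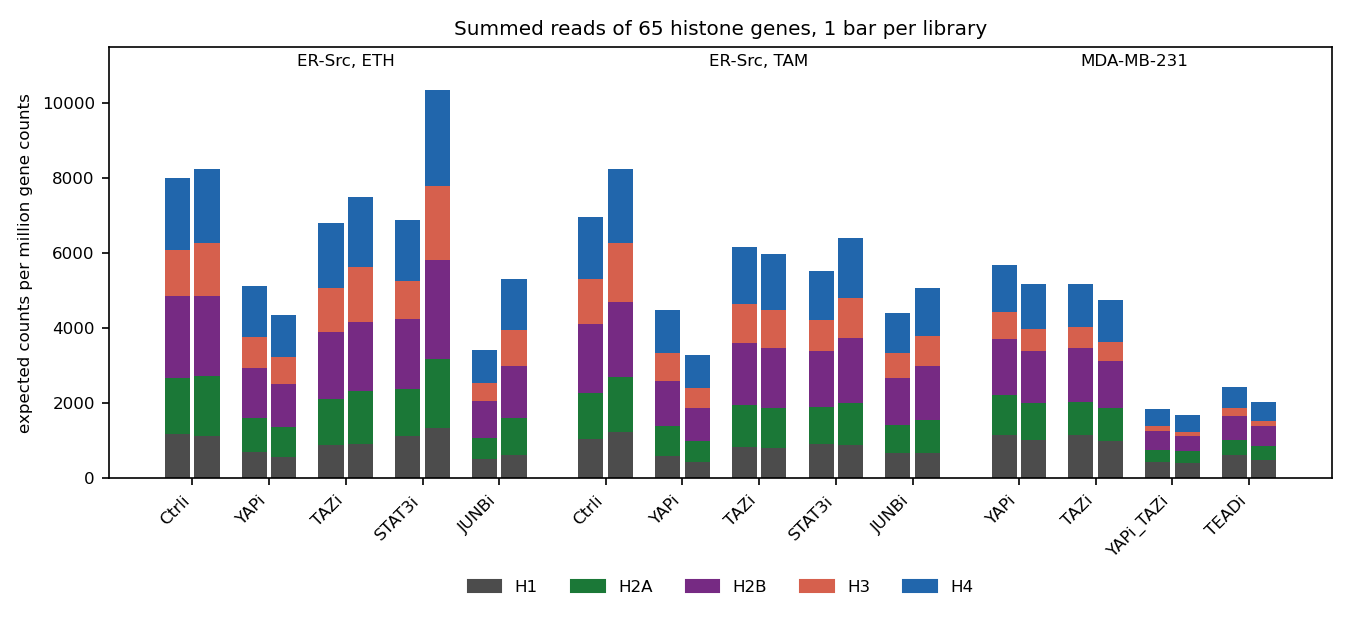
Summed estimated reads of the histone genes per 1000000 gene counts (y axis), stacked by histone type H1, H2A, H2B, H3 and H4, in each of the 20 ER-Src libraries and the 8 MDA-MB-231 knockdown libraries (x axis). The 4 YAPi libraries of ER-Src sit between 3292 and 5141 against 6958 to 8259 in the controls, and in MDA-MB-231 the YAPi_TAZi and TEADi libraries sit between 1690 and 2425 against 4743 to 5698 for YAPi and TAZi.

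Few of these genes were called between TAM and ETH. In the control siRNA, the summed normalized count in TAM was 98.8% of that in ETH (92.3% and 105% by replicate number, groups overlapping), and by cluster it was 94.8% for HIST1 and 113% for HIST2. At an adjusted p under 0.01 (DESeq2's Wald test, Benjamini-Hochberg adjusted over all genes), 3 of 65 members were lower in TAM and none was higher, against 6.11% of all tested genes called in either direction and 1.56% called lower. H4C8 fell from 2039 and 2020 normalized counts in ETH to 1327 and 1490 in TAM (log2 fold change -0.52, SE 0.12, adjusted p = 0.000608). H2BC7 fell from 887 and 891 to 594 and 606 (log2 fold change -0.56, SE 0.16, adjusted p = 0.00735). The ranges of neither gene overlapped between treatments. The third was H4C12 (log2 fold change -10.96), for which the merged H4C11 and H4C12 row gave +0.22 with an adjusted p of 0.433. The median over the members was -0.09, against -0.01 over all genes tested. Without Ctrli ETH replicate 1 or Ctrli TAM replicate 2, 1 member was called. Of 36 genes of S phase and replication, 4 fell: PCNA (-0.59), UHRF1 (-0.43), MCM2 (-0.41) and MCM3 (-0.37).

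YAP knockdown lowered histone RNA of every type. In TAM the summed normalized count fell to 49.2% of control (62.8% and 37.9% by replicate number, log2 ratio -1.02, SD 0.38), and in ETH to 54.6% (59.9% and 49.5%, log2 ratio -0.87, SD 0.15), with no overlap between groups. In TAM the types stood at 43.1% (H1), 49.2% (H2A), 52.1% (H2B), 44.3% (H3) and 53.8% (H4) of control, and in ETH at 51.2%, 51.2%, 54.4%, 54.1% and 59.6%. The clusters moved alike, with HIST1 at 50.1% and HIST2 at 45.4% in TAM and 54.0% and 55.3% in ETH. In TAM 42 of 65 members were called lower and none higher, where 10.9% of all tested genes were called and 5.54% were lower. In ETH 51 were lower and none higher, where 11.4% of all tested genes were called and 6.36% were lower.

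Among the abundant genes, linker histones fell strongly. H1-4 (ENSG00000168298.6, chr6:26156329-26157115), which packs DNA between nucleosomes, was at 4623 and 5788 normalized counts in Ctrli TAM and at 2239 and 1664 in YAPi TAM (log2 fold change -1.41, SE 0.16, adjusted p = 7.54e-16). In ETH it fell from 4831 and 4811 to 2301 and 2048 (log2 fold change -1.15, SE 0.11, adjusted p = 3.92e-22). H1-2, the H1 gene with the highest TPM, fell from 3802 and 4546 to 2014 and 1503 in TAM (log2 fold change -1.24, SE 0.16, adjusted p = 5.88e-13). For both genes every YAPi library was below both control libraries.

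Core histone genes of HIST2 fell as well. H3C13 (ENSG00000183598.3, chr1:149813225-149813693), an H3 gene, went from 1965 and 2990 normalized counts to 1082 and 773 in TAM (log2 fold change -1.41, SE 0.21, adjusted p = 1.08e-09). H4C14 (ENSG00000270882.2, chr1:149832657-149839767), the H4 gene with the highest level, went from 7921 and 9642 to 4965 and 3655 (log2 fold change -1.02, SE 0.16, adjusted p = 3.24e-09). H3C14 and H3C15, counted as 1 row, had a log2 fold change of -1.33 with an adjusted p of 3.31e-13. H2BC21 fell from 3215 and 3575 to 2091 and 1543 (log2 fold change -0.89, adjusted p = 3.96e-07). The highest YAPi value of H3C13, H4C14 and H2BC21 was below the lowest control value in each case.

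Among HIST1 genes, H3C11 had the largest fall of those with a posterior SD under 5%, from 553 and 743 normalized counts to 251 and 163 in TAM (log2 fold change -1.64, SE 0.26, adjusted p = 1.1e-08). In ETH it fell from 375 and 581 to 206 and 211 (log2 fold change -1.2, SE 0.24, adjusted p = 1.45e-05). H2AC14 fell from 931 and 914 to 454 and 327 in ETH (log2 fold change -1.24, SE 0.19, adjusted p = 1.64e-09). H2AC15 had a log2 fold change of -1.38 in ETH (SE 0.37, adjusted p = 0.00201). H2AC7 had estimates of -2.62 in TAM and -2.45 in ETH. With H2AC7, H3C4 and the readthrough gene as 1 row, the log2 fold change was -1.06 under TAM, at an adjusted p of 2.23e-07, and -1.17 under ETH, at an adjusted p of 1.05e-18. H4C12 was estimated at -11.93 in ETH, and the merged H4C11 and H4C12 row fell by 0.73 there (adjusted p = 4.31e-09) and by 1.02 under TAM (adjusted p = 5.35e-08). The merged rows thus fell by amounts near the member medians, which were -0.97 in TAM and -0.89 in ETH against 0.01 and 0 over all genes tested.

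By edgeR's quasi-likelihood test 28 members were lower in TAM and 48 in ETH. The TAM count was 22 without Ctrli TAM replicate 2 and 21 without YAPi TAM replicate 2, and the ETH count was 26 without Ctrli ETH replicate 2. Of the 58 members with an adjusted p in TAM, H3C6 and H4C9 were among those estimated above control (0.54, adjusted p = 0.312, and 0.52, adjusted p = 0.817). For the difference between the YAPi effect in TAM and in ETH, no member was called, against 0.496% of genes tested (DESeq2, with 4 members at an unadjusted p under 0.05, and edgeR, with 0 called and 0 under 0.05), so a difference was not shown. Of the 36 S phase and replication genes, 11 were lower in TAM, led by TYMS (-1.23), TK1 (-1.22), CCNA2 (-0.87) and CDC45 (-0.79), and 15 in ETH, led by TYMS (-1.44), CDC45 (-0.99), MCM6 (-0.98) and TK1 (-0.95). Their median was -0.33 in TAM and -0.49 in ETH, and their part in the fall of histone RNA was not tested.

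**Figure D3:**
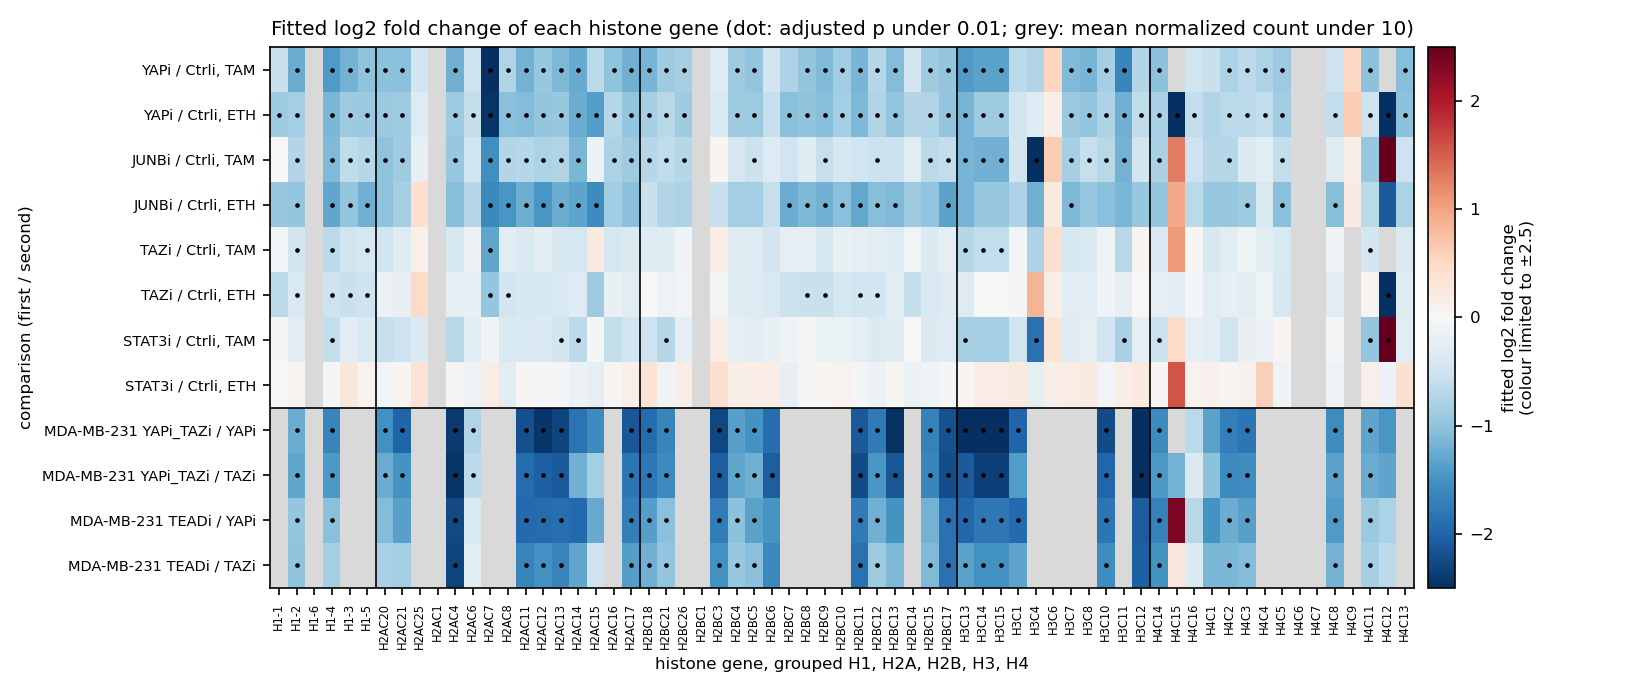
DESeq2 log2 fold changes (colour, limited to 2.5 either way) of the 65 histone genes (columns, grouped by type) in 12 comparisons (rows), with a dot for an adjusted p under 0.01 and grey for a mean normalized count under 10. The rows of YAPi and JUNBi in ER-Src and of YAPi_TAZi and TEADi in MDA-MB-231 are lower across most genes with enough counts, while the row of STAT3i in ETH is near 0 for most.

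Under JUNBi, histone RNA stood at 59.6% of control in TAM (59.1% and 60.0% by replicate number, log2 ratio -0.75, SD 0.28). In ETH it stood at 50.7% (40.0% and 60.8%, log2 ratio -0.98, SD 0.49). Neither pair of groups overlapped. In ETH the fall of JUNB itself missed the threshold (DESeq2 adjusted p = 0.0643), and edgeR called 0 members there. In TAM, H3 stood lowest at 50.3% of control and H2B highest at 68.4%, with H1 at 56.1%, H2A at 57.0% and H4 at 61.7%. In ETH, the types ran from 46.2% (H1) through 47.4% (H2A), 50.7% (H3) and 51.9% (H2B) to 54.6% (H4). In TAM 34 members were lower and none higher, against 6.71% of all tested genes called and 3.95% called lower, and in ETH 23 were lower and none higher, against 2.76% and 1.59%. The member medians were -0.62 and -0.98, against 0.02 over all genes in both treatments.

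By cluster, JUNBi left HIST1 at 62.2% and HIST2 at 52.0% of control in TAM, and at 48.7% and 54.0% in ETH. All 23 calls in ETH lay in HIST1, and the log2 ratio of the HIST2 sum had an SD of 0.76 there. H1-4 was at 2151 and 2620 normalized counts in JUNBi TAM and at 1630 and 2317 in JUNBi ETH, each below the control values given above. H3C13 was at 996 and 1172 in JUNBi TAM against 1965 and 2990 in control. H3C11 was at 256 and 305 in TAM against 553 and 743 (log2 fold change -1.18, SE 0.22, adjusted p = 5.65e-06). H3C14 and H3C15 as 1 row fell by 1.21 on the log2 scale (adjusted p = 0.00663).

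In JUNBi ETH the named genes were H2A and H2B genes of HIST1. H2AC12 went from 1536 and 1584 normalized counts to 425 and 721 (log2 fold change -1.46, SE 0.29, adjusted p = 4.29e-05). H2AC8 went from 2303 and 2243 to 676 and 998 (log2 fold change -1.46, SE 0.26, adjusted p = 3.31e-06). H2BC17 went from 1180 and 1189 to 405 and 538 (log2 fold change -1.34, SE 0.26, adjusted p = 3.05e-05). In all of these genes the control libraries lay close together and the JUNBi libraries further apart. H2AC15 had a log2 fold change of -1.57 (SE 0.39, adjusted p = 0.00283). H2AC7 was estimated at -1.53 in TAM and -1.62 in ETH, and its merged row at -0.75 (adjusted p = 0.00021) and -1.11 (adjusted p = 0.0073). The fitted log2 fold change of H3C4 in TAM, -9.46, rested on the 0.9 and 0 normalized counts of the JUNBi libraries.

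The JUNBi counts depended on single libraries and on the test. In TAM they were 18, 6 and 8 without Ctrli TAM replicate 1, Ctrli TAM replicate 2 or JUNBi TAM replicate 1, and edgeR called 26. In ETH they were 0 without either control library and 51 without JUNBi ETH replicate 2, and edgeR called 0 members and 1 gene of all, with 45 members at an unadjusted p under 0.05 and adjusted p values of 0.0569 to 0.14 for the 5 named genes. On the TPM scale the log2 ratio of the sums in TAM was -0.5 in place of -0.75. For the difference between treatments no member was called, against 0.287% of genes tested (12 members under an unadjusted p of 0.05 by DESeq2 and 11 by edgeR, which called 0), so a difference was not shown. Of the S phase and replication genes, TK1 fell (-0.97) and CCNE2 rose (1.2) in TAM, with a median of -0.05, and 7 fell in ETH, led by TK1 (-1.23), MCM7 (-1.15), CDC45 (-1.08) and TYMS (-1.0), with a median of -0.71. The difference between length and effective length, which follows the read or fragment length, was 49.0 bases in the STAT3i and JUNBi libraries and 49.5 in Ctrli, YAPi and TAZi, so the effects of these knockdowns and of that difference between libraries cannot be told apart.

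TAZ knockdown gave smaller falls. The summed normalized count was 77.1% of control in TAM (87.9% and 68.1% by replicate number, log2 ratio -0.38, SD 0.2) and 82.3% in ETH (81.4% and 83.1%, log2 ratio -0.28, SD 0.1), without overlap between groups. By type, H1 was lowest in both treatments, at 69.9% in TAM and 71.7% in ETH, and H3 was at 72.0% in TAM but at 92.7% in ETH, where the groups overlapped. In TAM 8 members were lower and none higher, against 3.53% of all tested genes called and 1.74% called lower, and in ETH 11 were lower and none higher, against 5.53% and 2.78%. All 11 of the ETH calls lay in HIST1, whose sum was 78.4% of control, while HIST2 was at 91.8%.

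Among the linker histones under TAZi, H1-4 was at 3413 and 3094 normalized counts in TAZi TAM against 4623 and 5788 in control (log2 fold change -0.67, SE 0.12, adjusted p = 5.54e-06). H3C13 was at 1562 and 1447 against 1965 and 2990 (log2 fold change -0.71, SE 0.17, adjusted p = 0.00176). In ETH, H2BC8 was at 1834 and 1767 against 2637 and 2631 in control (log2 fold change -0.56, SE 0.11, adjusted p = 6.39e-05). For these 3 genes the TAZi libraries lay close together and below both controls. H2BC9 (-0.55, SE 0.12, adjusted p = 0.000104) and H1-3 (-0.55, SE 0.13, adjusted p = 0.0011) fell by about as much in ETH. H3C14 and H3C15 each had -0.61 in TAM (adjusted p = 0.0037), but as 1 row the same estimate had an adjusted p of 0.214. H2AC7 was estimated at -1.29 in TAM and -0.97 in ETH, and its merged row at -0.35 (adjusted p = 0.162) and -0.36 (adjusted p = 0.0144). The fit for H4C12 in ETH gave -11.26, and its merged row -0.16 (adjusted p = 0.485).

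Medians over the members were -0.32 in TAM and -0.29 in ETH. By edgeR 0 members were called in TAM, where 37 had an unadjusted p under 0.05 (32 by DESeq2), and 4 in ETH. The TAM count was 1 without Ctrli TAM replicate 2, TAZi TAM replicate 1 or TAZi TAM replicate 2, and the ETH count was 1, 2, 2 and 3 when Ctrli ETH replicate 1, Ctrli ETH replicate 2, TAZi ETH replicate 1 or TAZi ETH replicate 2 was left out. No member was called for the difference between treatments, against 1.64% of genes tested (4 members under an unadjusted p of 0.05 by DESeq2 and 6 by edgeR, which called 0). Among the S phase and replication genes, CCNA2 fell in TAM (-0.43, list median -0.02) and 5 fell in ETH, among them TYMS (-0.91) and MCM6 (-0.75), with a list median of -0.32.

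Under STAT3 knockdown no histone gene was called in ETH, while some H3 and H4 genes fell in TAM. The summed normalized count was 74.0% of control in TAM (77.1% and 71.4% by replicate number, log2 ratio -0.43, SD 0.23) without overlap, and 103% in ETH (88.4% and 117%) with overlap. On the TPM scale the log2 ratio in TAM was -0.1. In TAM, H3 stood lowest at 63.6% of control, with H2A at 73.0%, H1 at 74.3%, H4 at 75.7% and H2B at 80.4%, and HIST2 (62.1%) was lower than HIST1 (78.3%). In TAM 9 members were lower and 1 higher, against 8.09% of all tested genes called, 4.8% called lower and 3.29% called higher, and edgeR called 9. The member median was -0.31 in TAM, against 0.03 over all genes tested.

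H3C13 was at 1233 and 1515 normalized counts in STAT3i TAM against 1965 and 2990 in control (log2 fold change -0.83, SE 0.18, adjusted p = 0.000145). H3C11 was at 343 and 376 against 553 and 743 (log2 fold change -0.82, SE 0.21, adjusted p = 0.00134). Both H3 genes were lower in each STAT3i library than in each control. H3C4 had a log2 fold change of -1.86, and its merged row -0.26 (adjusted p = 0.274). H4C11 had -0.97 and H4C12, the gene called higher, had 11.17, while their merged row was -0.62 (adjusted p = 0.000579). The TAM count was 2, 3 and 5 without Ctrli TAM replicate 2, STAT3i TAM replicate 1 or STAT3i TAM replicate 2.

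In STAT3i ETH no member was called, against 0.201% of genes tested (DESeq2, with 2 members at an unadjusted p under 0.05, and edgeR, with 1 under 0.05 and 0 of all genes called). The median over the members was 0.05. Without STAT3i ETH replicate 1, 5 members were called. For the difference between treatments, 1 member was called, H4C12, with a higher estimate in TAM, against 1.4% of genes tested and 0.447% in that direction, with 18 members at an unadjusted p under 0.05 by DESeq2 and 8 by edgeR, which called 0. No S phase or replication gene was called by DESeq2 or edgeR in either treatment, with list medians of 0.05 in TAM and 0.15 in ETH, and 8 and 2 had an unadjusted p under 0.05 by DESeq2 (9 and 3 by edgeR).

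In MDA-MB-231, histone RNA was lower when YAP and TAZ were depleted together, or TEAD factors were, than when YAP or TAZ was depleted alone. The 65 genes took 5698 and 5173 RPM in YAPi and 5191 and 4743 in TAZi, but 1848 and 1690 in YAPi_TAZi and 2425 and 2022 in TEADi, with Wilson intervals of at most 3.84% to either side. The summed normalized count in YAPi_TAZi was 31.7% of that in YAPi (31.4% and 31.9% by replicate number, log2 ratio -1.66, SD 0.12) and 35.5% of that in TAZi (34.9% and 36.2%). In TEADi it was 41.4% of that in YAPi (43.3% and 39.3%) and 46.5% of that in TAZi (48.1% and 44.6%). None of these groups overlapped, and YAPi_TAZi and TEADi are called the combined depletions below. These comparisons share the YAPi and TAZi libraries, and an unperturbed level in libraries of the same kind was not analysed here.

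H3 genes stood lowest. In YAPi_TAZi, H3 was at 18.3% of the YAPi level (18.2% and 18.4%), with H2B at 30.2%, H2A at 30.7%, H4 at 36.2% and H1 at 37.5%. Against TAZi, H3 was at 22.8% and H4 at 40.2%. In TEADi, H3 was at 28.6% of YAPi and 35.7% of TAZi, and H1 at 50.5% and 53.0%. HIST2 stood at 26.5% of YAPi in YAPi_TAZi and at 36.3% in TEADi, and HIST1 at 32.9% and 42.8%.

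Of the 65 members, 29 were lower in YAPi_TAZi than in YAPi (4.82% of all tested genes were called and 3.41% lower), and 31 were lower than in TAZi (6.77% and 4.59%). In TEADi 25 were lower than in YAPi (3.93% and 2.36%) and 24 were lower than in TAZi (8.19% and 4.4%). No member was higher in these 4 comparisons. Between 33 and 38 members had enough counts for an adjusted p in each, and edgeR called 29, 27, 27 and 25. The member medians were -1.57, -1.37, -1.3 and -1.17 in the same order, against -0.02 to 0.02 over all genes tested. H4C16, the gene on chromosome 12, was at 97.0 and 133 normalized counts in YAPi and at 65.3 and 78.8 in YAPi_TAZi, with a log2 fold change of -0.68 that missed the threshold (adjusted p = 0.37).

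H3C13 was at 238 and 190 normalized counts in YAPi, 159 and 119 in TAZi, 25.8 and 38.0 in YAPi_TAZi and 71.5 and 41.2 in TEADi. It thus separated both combined depletions from both single ones, with a log2 fold change of -2.73 for YAPi_TAZi against YAPi (SE 0.37, adjusted p = 1.97e-11) and -1.96 for TEADi against YAPi (SE 0.35, adjusted p = 1.79e-06). H3C14 and H3C15, as 1 row, had -2.57 for YAPi_TAZi against YAPi (adjusted p = 4.09e-28). H3C1 was at 103 and 76.5 in YAPi and 25.5 and 21.5 in TEADi (log2 fold change -1.95, SE 0.49, adjusted p = 0.00214).

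Among H2A genes, H2AC4 was at 131 and 118 normalized counts in YAPi, 134 and 124 in TAZi, 28.6 and 19.9 in YAPi_TAZi and 28.1 and 24.9 in TEADi. Against YAPi it fell by 2.39 on the log2 scale in YAPi_TAZi (SE 0.44, adjusted p = 4.96e-06) and by 2.25 in TEADi (SE 0.42, adjusted p = 9.38e-06). Against TAZi it fell by 2.45 in YAPi_TAZi and fell by 2.29 in TEADi, with adjusted p values of 2.77e-10 and 6.16e-10. H2AC12 was at 276 and 230 in YAPi and 53.0 and 41.8 in YAPi_TAZi (log2 fold change -2.44, SE 0.32, adjusted p = 8.81e-12). H2AC11 is 1 of the 2 genes in which the search above found no hairpin. It was at 455 and 368 in YAPi, 346 and 336 in TAZi and 109 and 107 in TEADi (log2 fold change -1.95 against YAPi, SE 0.24, adjusted p = 6.1e-13, and -1.67 against TAZi, adjusted p = 4.62e-14). H2AC13 was at 192 and 174 in TAZi and 65.1 and 52.4 in TEADi (log2 fold change -1.65, SE 0.26, adjusted p = 3.09e-08). In all of these H2A genes, every library of a combined depletion lay below every library of a single one.

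Among H2B genes, H2BC17 was at 257 and 235 normalized counts in TAZi, 53.0 and 54.1 in YAPi_TAZi and 68.9 and 65.3 in TEADi (log2 fold change -2.21 for YAPi_TAZi, adjusted p = 2.38e-16, and -1.87 for TEADi, adjusted p = 7.98e-13). H2BC11 was at 299 and 246 in TAZi, 76.1 and 43.6 in YAPi_TAZi and 84.2 and 67.0 in TEADi (log2 fold changes -2.23 and -1.86). The linker gene H1-4 was at 1212 and 963 in YAPi, 1072 and 816 in TAZi, 362 and 339 in YAPi_TAZi and 637 and 427 in TEADi. H4C14 was at 774 and 694 in YAPi, 661 and 646 in TAZi, 239 and 248 in YAPi_TAZi and 241 and 221 in TEADi. In each of these 4 genes the combined depletions lay below the single ones without overlap.

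No member was called between the single knockdowns or between the combined depletions. TAZi stood at 89.1% of YAPi (90.0% and 88.2%), with 0 called against 1.96% of genes tested (1 member under an unadjusted p of 0.05 by DESeq2 and 6 by edgeR, which called 0). TEADi stood at 131% of YAPi_TAZi (138% and 123%), with H3 at 157%, and 0 called against 4.46% of genes tested (8 and 9 under 0.05, edgeR 0). The count for TEADi against YAPi was 8, 14 and 12 without YAPi replicate 1, YAPi replicate 2 or TEADi replicate 2, that for TEADi against TAZi was 5 and 8 without TAZi replicate 1 or 2, and that for YAPi_TAZi against TAZi was 11 without TAZi replicate 2. Replicates 1 and 2 of this set differed in length minus effective length (48.0 and 74.6 bases), alike in every group.

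Genes of S phase and replication fell in the same MDA-MB-231 comparisons. Of 36, 16 were lower in YAPi_TAZi than in YAPi, led by CCNE2 (-2.67), CDC45 (-2.6), UHRF1 (-2.11) and MCM10 (-1.99), with a median of -1.36. The counts were 17 for TEADi against YAPi (median -1.27), 27 for YAPi_TAZi against TAZi (-1.56) and 25 for TEADi against TAZi (-1.56), and 0 for TAZi against YAPi (0.24) and for TEADi against YAPi_TAZi (0.05), where edgeR called 0 as well and 7 and 0 had an unadjusted p under 0.05 by DESeq2 (13 and 3 by edgeR). Their part in the fall of histone RNA was not tested.

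Genes that make and process histone transcripts were called no more often than all tested genes. Of a list of 20, which held SLBP, NPAT, LSM11 and the cleavage factors CPSF2, CPSF3 and SYMPK, only LSM10, a subunit of the U7 particle, fell in YAPi ETH (-1.21, SE 0.25) and TUT7, which adds uridines to histone transcripts marked for decay, rose in TEADi against TAZi (0.82). No other was called by DESeq2 in any of the 19 comparisons, in which 0 to 6 of the 20 had an unadjusted p under 0.05 (1 to 8 by edgeR, which called 0 or 1), and the list medians ran from -0.3 to 0.32. The U7 RNA gene RNU7-1 was listed at 0. In the comparisons with a call, YAPi ETH and TEADi against TAZi, 11.4% and 8.19% of all tested genes were called. The counts thus do not set this list apart from other genes. For each accompanying gene list, the share of all tested genes called is the one given above for the same comparison.

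The list of replication-independent histone genes held 12. In YAPi TAM 5 were lower, among them the linker histone H1-10 (-1.23), the centromeric H3 CENPA (-1.09), H2AX (-0.76) and H2AZ1 (-0.62), with a list median of -0.65. In YAPi ETH 5 were lower (median -0.56), in TAZi 2 in each treatment, in STAT3i TAM H1-10 alone (-0.95), in JUNBi TAM 2, among them H1-10 (-1.41), and in JUNBi ETH none (3 at an unadjusted p under 0.05 by DESeq2, 4 by edgeR, which called 0). In MDA-MB-231, H2AX was lower in YAPi_TAZi than in YAPi (-1.43), and H2AX and H2AZ1 were lower in each of the other 3 comparisons of a combined with a single depletion.

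Of 13 histone chaperone and assembly genes, 5 fell in YAPi TAM and 6 in YAPi ETH. Of all tested genes, 5.54% and 6.36% were called lower there. Those in YAPi TAM included NASP, a carrier of H3 and H4 (-1.07), and SSRP1, a subunit of the FACT complex (-0.85). The counts were 1 for TAM against ETH, 1 (SSRP1, -0.4) and 3 for TAZi in TAM and ETH, 2 for JUNBi ETH (NASP -1.12, SSRP1 -0.83), and 0 by DESeq2 and edgeR for STAT3i in both treatments and for JUNBi TAM, where 0, 0 and 4 had an unadjusted p under 0.05 by DESeq2 (1, 1 and 3 by edgeR). In MDA-MB-231, 1 and 5 fell in YAPi_TAZi and 1 and 6 in TEADi, against YAPi and TAZi, while 1 rose in TEADi against TAZi, 2 rose in TEADi against YAPi_TAZi, and 1 rose and 1 fell in TAZi against YAPi. Of 7 other RNAs without a poly(A) tail, 6 were found by symbol. Among these, 3 fell in YAPi TAM, and 4 fell and 1 rose in YAPi ETH, where 10.9% and 11.4% of all tested genes were called. In TAZi TAM and JUNBi ETH 1 fell in each, 1 fell and 1 rose in TAM against ETH and in STAT3i ETH, and 1 fell and 2 rose in TAZi ETH. None was called by DESeq2 or edgeR in STAT3i TAM, JUNBi TAM or among the MDA-MB-231 knockdowns, where up to 4 had an unadjusted p under 0.05.

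The lines differed in which copies they used. In MDA-MB-231 knockdowns, 20 members had a mean under 0.5 TPM while in ER-Src they averaged at least 5 TPM, a criterion chosen after the values were seen. These 20 genes carried 23.1% of all member TPM in ER-Src, yet each had at most 8 counts in total over the 8 knockdown libraries and 0 in the other 8 MDA-MB-231 libraries. In both lines 38 members averaged at least 5 TPM, 4 were under 0.5 in ER-Src and in the knockdowns, and 3 fell between. The share of all genes that met the same criterion was not determined, so the 20 are not set against other genes.

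Most of these 20 genes lay next to each other. In HIST1, the stretch from H4C4 to H2BC10 (chr6:26188710-26273412, 84.7 kb) held 15 members, of which 13 met the criterion and the other two, H4C6 and H4C7, were near 0 in both lines. In ER-Src the 13 averaged 6.22 to 160 TPM and included H4C4 (160 ± 57.9) and H3C7 (159 ± 60.3), whose MDA-MB-231 values ran from 0 to 1.27 and from 0 to 1.85 with a median of 0. The neighbours on either side, H2BC6 and H4C8, were expressed in both lines. H2BC8 in this stretch held 868 to 2691 normalized counts in ER-Src and 0 to 2.9 in MDA-MB-231, and H3C11 in the second stretch 160 to 743 against 0 to 1.4.

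The second stretch, H2AC16 to H4C13 (chr6:27865317-27873534, 8.22 kb), held 4 such genes at 37.7 to 143 TPM in ER-Src. The HIST3 pair H2AC25 and H2BC26 (chr1:228434777-228463104) stood at 22.1 and 11.5 TPM in ER-Src and below the criterion in MDA-MB-231. H1-1, whose hairpin is shown above, was alone in its stretch (chr6:26017032-26017787), at 188 to 538 counts in every ER-Src library and 22.8 TPM on average. DNA copy number was not measured, so loss of these genes and absence of their transcription cannot be told apart. Among genes used by both lines, medians of some also differed, over ranges that overlapped. H1-2 had a median of 372 TPM in MDA-MB-231 knockdowns (186 to 751) and 194 in ER-Src (78.1 to 295). H4C14 had 209 (92.5 to 503) and 433 (204 to 849), and H2AC13 had 66.7 (25.6 to 160) and 167 (69.5 to 283). The knockdown medians pool single and combined depletions. In YAPi and TAZi alone, H1-2 was at 398 to 751 TPM, H4C14 at 256 to 503 and H2AC13 at 88.6 to 160. A difference in balance between the lines was therefore not shown for H4C14 and H2AC13.

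**Figure D4:**
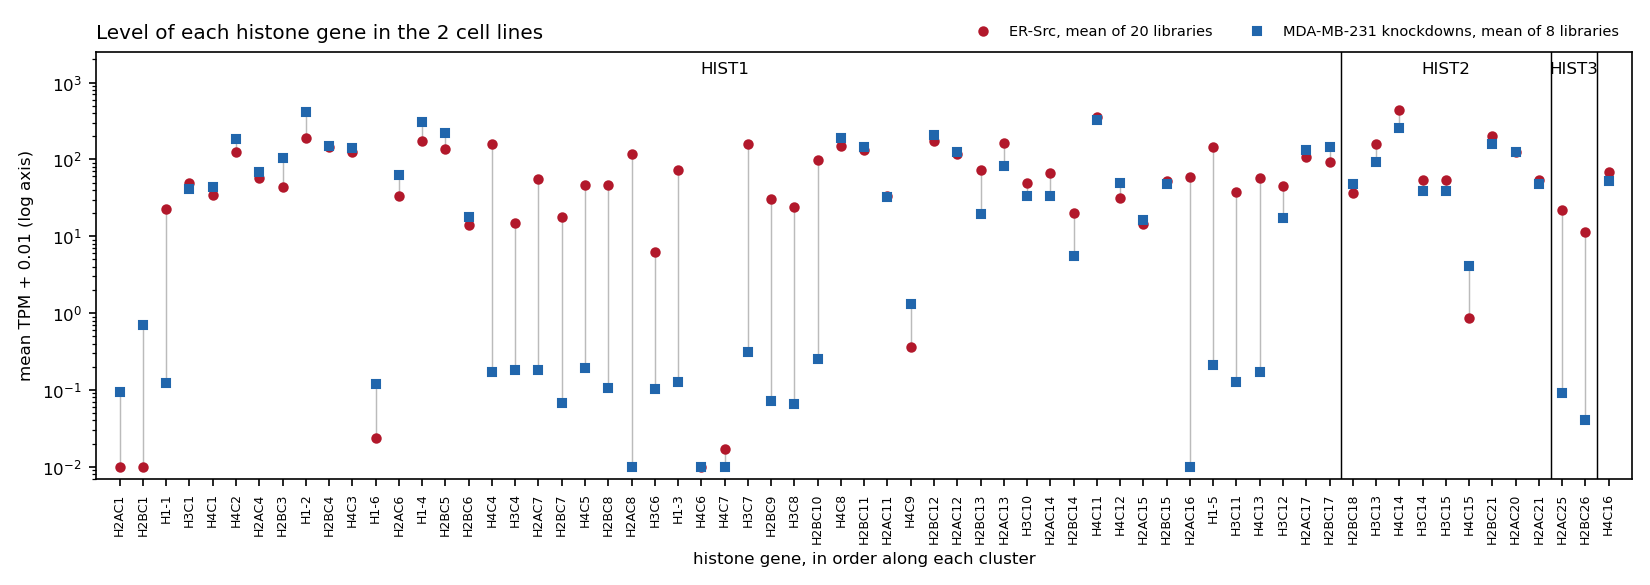
Mean TPM plus 0.01 (y axis, log scale) of each histone gene in order along HIST1, HIST2 and HIST3 and the single gene H4C16 (x axis), in the 20 ER-Src libraries (red circles) and the 8 MDA-MB-231 knockdown libraries (blue squares). Blue squares drop to the bottom of the plot over the 84.7 kb stretch from H4C4 to H2BC10 and over the 4 genes from H2AC16 to H4C13, while the red circles there stay between 6.22 and 160 for the members that meet the criterion.

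As a share of histone reads, H1 took 11.7% to 16.5% in ER-Src (median 13.6%) and 20.0% to 25.4% in the MDA-MB-231 knockdowns (median 22.6%). H3 took 13.9% to 19.4% in ER-Src (median 16.8%) and 6.69% to 12.7% in the knockdowns (median 9.83%). The ranges of neither type overlapped between the lines. H4 took 23.6% to 26.6% and 22.0% to 26.8%, H2B 24.0% to 28.7% and 23.1% to 27.5%, and H2A 16.4% to 19.4% and 17.0% to 19.0%, so these 3 types held like shares in both lines.

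The poly(A)-type MDA-MB-231 libraries held the same genes at 191 to 248 RPM, against 1690 to 5698 in the knockdowns of the first set. Among 31 members with a mean count of at least 50 in the knockdowns, the ratio of the mean shares had a median of 88.5. That filter used the knockdowns alone, so it left out members with few counts there and favoured high ratios. The same ratio over all genes was not determined. Knockdown, set and library kind cannot be told apart here, so these are values of the libraries and no test was made.

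This ratio was unequal between genes. It was largest for H3C1 (270), H2BC3 (268), H4C16 (211), H4C2 (198) and H4C11 (181). It was smallest for H2BC12 (3.85, from 114 to 29.6 RPM), H1-2 (4.31, from 414 to 96.0), H2AC6 (7.39, from 168 to 22.8), H2BC5 (8.83, from 174 to 19.7) and H2BC18 (20.9). For H2BC12 the poly(A)-type libraries ran from 6.26 to 58.7 RPM, so its ratio depends on which of them are taken. H2BC12, H1-2, H2AC6 and H2BC5 thus kept far more of their share than H3C1 and H2BC3 did. Outside the named genes and chosen after its values were seen, H4C9 was the only member with a larger share in the poly(A)-type libraries, at 2.72 to 8.09 RPM against 1.93 to 4.44 in the knockdowns, ranges that overlap. H1 rose from 20.0% to 25.4% of histone reads in the knockdowns to 28.6% to 57.5% in the poly(A)-type libraries, and H3 fell from 6.69% to 12.7% to 1.47% to 3.43%.

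**Figure D5:**
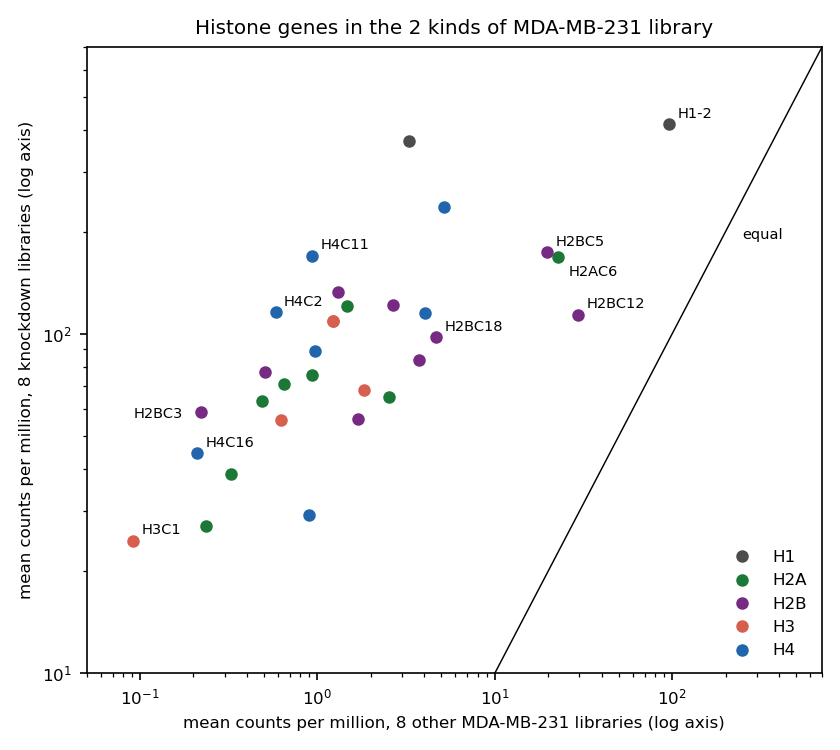
Mean reads per 1000000 gene counts of 31 histone genes, coloured by type, in the 8 MDA-MB-231 knockdown libraries (y axis, log scale) against the other 8 MDA-MB-231 libraries, which hold almost no RNA without a poly(A) tail (x axis, log scale), with the line of equality. The 31 genes were chosen by a mean count of at least 50 in the knockdown libraries alone, which favours points above the line. All 31 points lie above it, and H2BC12, H1-2, H2AC6 and H2BC5 lie nearest to it.

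Promoter letters differed between the histone types. In the 68 RefSeq windows (GRCh38.p14, 250 bases before to 50 after the start) of 64 member symbols, the octamer ATTTGCAT, bound by POU2F1, occurred on either strand in 15 of 20 H2B windows (75.0%) and 11 of 16 H2A windows (68.8%), against 0 of 6 for H1, 1 of 13 for H3, 0 of 13 for H4 and 1.77% of all 35116 promoter windows. H2A and H2B genes often lie head to head, so some of their windows overlap and hold the same octamer. H2BC5 and H2BC12 were each counted more than once, through nearly identical windows, H2BC5 without the octamer and H2BC12 with it. The H3 window with the octamer (H3C4, chr6:26199244-26199543) is the same stretch as the H2AC7 window. Another H3C4 window, chr6:26197237-26197536, had none. CCAAT was found in 85.3% of the windows against 34.6% of all promoters, but in 3 of 13 for H4, and TATAAA in 66.2% against 11.5%. The octamers of the 3 H2B genes with the highest mean TPM in ER-Src are shown in 30-base windows, read along the gene, with the octamer in capitals.
H2BC21: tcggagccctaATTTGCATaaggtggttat
H2BC12: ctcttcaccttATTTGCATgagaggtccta
H2BC4: tttcatacctcATTTGCATagctctgccca
They lie at chr1:149886710-149886739, chr6:27146886-27146915 and chr6:26124031-26124060, all on the minus strand, and the octamer begins 46, 46 and 123 bases before the start. TGANTCA, the letters of an AP-1 site, were found in 1 of the 68 windows (1.47%, against 7.71% of all promoters), and GGAATG, the letters of a TEAD site, in 5 (7.35%, against 14%). H2BC21, H2BC12 and H2BC4 were at 3215 and 3575, 2006 and 1995, and 2485 and 2753 normalized counts in Ctrli TAM, and at 2091 and 1543, 1340 and 1085, and 1669 and 1136 in YAPi TAM.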

How the data were processed

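RNA was measured in 36 libraries, and the titles of the samples gave each its group and number. According to the study's methods, total RNA went into libraries made with a TruSeq Ribo Profile kit, and the authors aligned reads with STAR to hg38 (GENCODE 30), keeping up to 20 alignments per read, and quantified genes with RSEM. The authors deposited, for each library, RSEM expected counts, which are estimated reads per gene that are not normalized and need not be whole, and TPM, in which these estimates are divided by effective length and scaled to a fixed total. The deposited tables also hold length and effective length in bases and the posterior mean and SD of the count, which served to compare libraries and to find genes with uncertain estimates. Gene symbols and coordinates came from GENCODE 44, which matched 93.1% of the 60725 Ensembl identifiers. A further 746 identifiers, at most 0.109% of counts, were left out.

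Expected counts were rounded, and each pair of groups was compared over all genes in a DESeq2 run of its own (version 1.42.0, R 4.3.3, Wald test, other settings at their defaults, adjusted p under 0.01), as in the study's methods. In all, 19 comparisons were made, 9 between pairs of ER-Src groups, 4 interactions of siRNA and treatment, and 6 between MDA-MB-231 knockdowns. Members without an adjusted p, which independent filtering gives to genes with few counts, were counted as not called. Normalized counts are estimates divided by size factors over the 20 ER-Src or the 8 MDA-MB-231 knockdown libraries. With 2 libraries a group, no permutation test could reach a small p. Sums over members are given with the SD of the log2 ratio and no p. Single-library shares carry 95% Wilson intervals, and 3 counts was taken as the limit that a count of 0 allows. The procedure was tested on simulated data.

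Named members were the 12 with the highest mean TPM in ER-Src, in each comparison up to 5 called members with the largest change and a mean normalized count of at least 50, and the 5 largest and 5 smallest ratios between MDA-MB-231 library kinds. H1-2, H2BC21, H4C14 and H4C16 were added in comparisons after their values were seen. Accompanying gene lists were S phase and replication genes (36), histone transcript production and processing (20), replication-independent histones (12), chaperones (13) and RNAs without a poly(A) tail (7). The members and lists were chosen with earlier results of these data known. Alternatives were the quasi-likelihood test of edgeR 4.0.16, size factors by TMM, removal of genes with a mean count under 10, the replicate number as a block, leaving out each library (92 fits), sums in TPM and sums without other RNAs lacking a poly(A) tail, and, added after the data were seen, 62 member rows in which copies were merged into 3 rows. Stem-loops were read from hg38, and promoter windows from RefSeq (GRCh38.p14).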

Additional observations from a re-analysis of the deposited data

Results flagged for a closer look

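H4C12, an H4 gene of HIST1, stood out because its STAT3i effect differed between treatments in a direct test. The interaction of STAT3i with TAM was 11.29 on the log2 scale (SE 2.13, DESeq2 adjusted p = 2.15e-05, edgeR adjusted p = 0.0615). Its normalized counts were 756 and 579 in STAT3i TAM, 929 and 134 in STAT3i ETH and 767 and 414 in Ctrli ETH, and no more than 3 in Ctrli TAM, so the value rests on libraries at or near 0 and is no bound on a fold. With H4C11 and H4C12 as 1 row the interaction was -0.73 (adjusted p = 0.268).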

How the results depend on the processing

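Counts of members called stayed within 1.5 times of the reported ones in every comparison with TMM size factors. With the replicate number as a block, which the labels do not tie to a shared culture (correlations of same-numbered libraries were -0.056 to 0.41 in ER-Src and 0.781 to 0.838 in MDA-MB-231), the counts were 1 for TAM against ETH (H4C11, which shares reads with H4C12, higher, and none lower in place of 3), 2 and 5 for TAZi in TAM and ETH, 38 for JUNBi in ETH, and 3 and 2 for the STAT3i and JUNBi interactions. With the block, the estimates for TAM against ETH of H4C8 (-0.52, DESeq2 adjusted p = 0.0135) and H2BC7 (-0.56, adjusted p = 0.105) kept their size but missed the threshold. With edgeR the counts were 0 and 4 for TAZi in TAM and ETH, 0 for JUNBi in ETH and 0 for the STAT3i interaction. For TAZi in TAM both the filter at a mean count of 10 and the merged copies gave 5, and the merged copies gave 0 for the STAT3i interaction. In TPM, the log2 ratio of the sums was -0.1 for STAT3i in TAM and -0.17 for TAZi in ETH. The causes were not tested. The low count filter gave 15 for STAT3i in TAM, edgeR 28 for YAPi in TAM and the merged copies 2 for TAM against ETH, each 1.5 times from the reported count. The remaining values under these settings moved by less than 1.5 times for counts or by less than the spread between libraries for sums.

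Leaving out 1 library at a time, which assumes that a lone library varies like the others, gave counts of 1 to 2 for TAM against ETH. In TAM they were 21 to 39 (YAPi), 1 to 8 (TAZi), 2 to 9 (STAT3i) and 6 to 30 (JUNBi), and in ETH 26 to 48, 1 to 3, 0 to 5 and 0 to 51. For the interactions they were 0 to 2, 0 to 1, 1 to 10 and 0 to 6. In MDA-MB-231 they were 0 to 0 for TAZi against YAPi, 23 to 25 and 11 to 25 for YAPi_TAZi against YAPi and TAZi, 8 to 22 and 5 to 24 for TEADi against them, and 0 to 1 for TEADi against YAPi_TAZi. In the MDA-MB-231 knockdowns, the libraries with the lowest totals, 33 to 38 of 65 members had an adjusted p in the comparisons of combined with single depletions, and 20 members were near 0 in this line.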
